A study of Mus musculus with 14 samples.

Results

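Putative enhancers that lie at the starts of noncoding transcripts were examined in immortalised mouse embryo fibroblasts (iMEFs). The regions were taken from 32965 putative enhancers. A region was kept when its centre lay within 1 kb of a transcription start site (TSS) of a gene that is not protein-coding in GENCODE release M21, and over 1 kb from every protein-coding TSS. This rule gave 1032 regions, or 3.13% of the list (95% Wilson interval 2.95 to 3.32), which are called noncoding-start enhancers here. The comparison sets were 30570 TSS-distal enhancers, with no TSS of any gene within 1 kb, and 1363 coding-start enhancers, with a protein-coding TSS within 1 kb. All positions are in the mouse build mm10 (GRCm38.p6) and count from 1.

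The cells carried floxed Ash2l alleles, whose exon 4 had been deleted with a tamoxifen-inducible Cre-ER recombinase, and they lived on a lentiviral fusion of FKBP12 F36V, 2 HA tags and human ASH2L. Clones of these cells had been picked by limiting dilution, and predominantly the clone NG3 was studied. ASH2L is a core subunit of the KMT2 complexes that methylate lysine 4 of histone H3, and the compound dTAG sends the fusion protein to degradation. The labels describe 14 libraries, of which 12 are chromatin immunoprecipitations of trimethylated H3 lysine 4 (H3K4me3), 2 each for untreated cells and for cells treated with dTAG for 30 min, 2 h, 4 h, 8 h and 16 h, and 2 are inputs, of untreated and of 16 h treated cells. The H3K4me3 peak list used here covers all the samples together, and the enhancer list comes from other assays. Both give positions without any value per sample. A change of H3K4me3 over time at these regions was not analysed here, and the lists do not give the depth of the libraries.

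The enhancers had been defined by the authors in control samples, through overlapping H3K4me1, H3K27ac and accessible chromatin, after removal of regions within 1 kb of known promoters. H3K4me1 and H3K27ac are the marks of active enhancers, whereas H3K4me3 is typical of promoters. Active enhancers are themselves transcribed, often into short and unstable RNAs, and a number of annotated long noncoding RNAs begin at elements with enhancer marks. Many H3K4me3 promoters lie in CpG islands, stretches in which the dinucleotide CpG is not depleted. The comparison made here therefore asks how often regions with enhancer marks at an annotated noncoding start also carry a promoter mark. The peak list, which pools untreated and treated cells, had peaks within 1 kb of a TSS at 12 of 14 fibroblast marker genes. Dcn and Lum were the exceptions. It had peaks at 0 of 7 blood, 0 of 5 muscle, 1 of 7 neural, 2 of 6 endothelial and 2 of 8 epithelial marker genes. The share over all coding genes was 59.1%.

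Sequences are shown first for the noncoding-start enhancers that overlapped the widest H3K4me3 peaks, of which BC037039, with the third widest, is left out. Each is the central 300 bases of the region in GRCm38.p6 (RefSeq), written 5′ to 3′ on the strand of the noncoding transcript, with every CpG in capitals.
Gm43573, chr3:148988165-148988464, plus strand: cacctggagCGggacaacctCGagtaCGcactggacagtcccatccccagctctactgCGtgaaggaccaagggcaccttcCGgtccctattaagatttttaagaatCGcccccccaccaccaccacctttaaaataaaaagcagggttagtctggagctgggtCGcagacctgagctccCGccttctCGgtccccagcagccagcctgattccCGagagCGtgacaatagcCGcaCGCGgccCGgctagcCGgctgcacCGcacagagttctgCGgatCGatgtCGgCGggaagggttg
Lncpint, region 2, chr6:31216605-31216904, minus strand: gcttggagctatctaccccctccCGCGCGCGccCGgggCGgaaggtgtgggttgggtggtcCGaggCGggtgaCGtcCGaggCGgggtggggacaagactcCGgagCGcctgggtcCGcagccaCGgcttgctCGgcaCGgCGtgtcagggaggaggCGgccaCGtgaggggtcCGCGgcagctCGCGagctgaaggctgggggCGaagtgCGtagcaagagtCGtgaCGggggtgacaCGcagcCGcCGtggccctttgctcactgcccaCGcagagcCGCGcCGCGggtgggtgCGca
Mir17hg, chr14:115041811-115042110, plus strand: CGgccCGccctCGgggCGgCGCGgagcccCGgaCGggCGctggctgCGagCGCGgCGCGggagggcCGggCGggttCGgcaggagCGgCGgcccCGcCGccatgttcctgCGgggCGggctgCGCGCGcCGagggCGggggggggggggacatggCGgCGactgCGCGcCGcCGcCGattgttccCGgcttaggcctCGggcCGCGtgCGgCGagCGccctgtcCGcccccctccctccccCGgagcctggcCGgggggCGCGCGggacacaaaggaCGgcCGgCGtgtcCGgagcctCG
Gm13067, chr4:150048435-150048734, plus strand: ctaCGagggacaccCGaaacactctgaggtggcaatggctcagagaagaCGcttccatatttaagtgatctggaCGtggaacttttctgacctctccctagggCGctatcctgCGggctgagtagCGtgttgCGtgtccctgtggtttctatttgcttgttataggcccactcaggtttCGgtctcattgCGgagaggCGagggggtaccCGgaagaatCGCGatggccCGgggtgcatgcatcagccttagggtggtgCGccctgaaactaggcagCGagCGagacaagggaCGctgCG
Gm22133, chr7:45457191-45457490, minus strand: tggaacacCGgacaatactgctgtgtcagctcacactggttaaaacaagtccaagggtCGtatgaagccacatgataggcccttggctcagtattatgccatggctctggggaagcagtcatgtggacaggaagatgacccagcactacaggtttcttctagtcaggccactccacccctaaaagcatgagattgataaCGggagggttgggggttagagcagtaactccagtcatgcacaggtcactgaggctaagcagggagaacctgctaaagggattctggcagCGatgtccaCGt
These windows held 21, 37, 53, 20 and 5 CpGs, respectively. The CpG ratio, which is the observed number of CpGs over the number given by the C and G content, was 0.778 for Gm43573, 0.959 for Lncpint, 1.03 for Mir17hg, 0.827 for Gm13067 and 0.252 for Gm22133.

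For contrast, the next set holds noncoding-start enhancers from among the 3 widest without any H3K4me3 peak within 100 kb, again with CpGs in capitals.
Gm29346, chr1:120758130-120758429, plus strand: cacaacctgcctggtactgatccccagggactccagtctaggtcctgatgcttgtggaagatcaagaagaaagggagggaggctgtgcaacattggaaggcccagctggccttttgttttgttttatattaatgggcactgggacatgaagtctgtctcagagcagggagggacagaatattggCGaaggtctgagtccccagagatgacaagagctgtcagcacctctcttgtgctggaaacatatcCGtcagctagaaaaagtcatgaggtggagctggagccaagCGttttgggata
Gm15271, chr10:24447767-24448066, plus strand: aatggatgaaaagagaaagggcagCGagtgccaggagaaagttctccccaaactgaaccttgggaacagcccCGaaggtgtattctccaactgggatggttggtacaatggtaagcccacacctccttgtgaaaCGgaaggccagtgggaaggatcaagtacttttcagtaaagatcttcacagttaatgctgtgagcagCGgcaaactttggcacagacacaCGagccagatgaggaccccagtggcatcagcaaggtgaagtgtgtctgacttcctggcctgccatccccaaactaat
Their CpG counts were 3 for Gm29346 and 5 for Gm15271, with CpG ratios of 0.162 and 0.261.

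A further pair shows noncoding RNAs with known names, 1 without and 1 with an H3K4me3 peak.
Pvt1, region 1, chr15:62098810-62099109, plus strand: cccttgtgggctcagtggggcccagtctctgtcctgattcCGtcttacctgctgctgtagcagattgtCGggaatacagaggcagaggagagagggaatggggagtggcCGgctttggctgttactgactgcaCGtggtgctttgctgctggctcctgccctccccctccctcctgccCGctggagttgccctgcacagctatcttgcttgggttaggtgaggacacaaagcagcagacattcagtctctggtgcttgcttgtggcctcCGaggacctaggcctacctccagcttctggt
Rmst, chr10:92162599-92162898, minus strand: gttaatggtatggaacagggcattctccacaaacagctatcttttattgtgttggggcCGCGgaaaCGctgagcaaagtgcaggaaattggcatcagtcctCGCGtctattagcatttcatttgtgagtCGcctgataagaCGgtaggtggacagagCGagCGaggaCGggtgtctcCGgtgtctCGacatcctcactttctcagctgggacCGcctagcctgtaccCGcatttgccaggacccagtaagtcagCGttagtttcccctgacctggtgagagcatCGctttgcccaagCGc
The Pvt1 window held 6 CpGs at a CpG ratio of 0.228, and the Rmst window 17 CpGs at a ratio of 0.788. Both windows contain the nearest annotated TSS of the gene.

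H3K4me3 peaks were found at 251 of the 1032 noncoding-start enhancers, or 24.3% (21.8 to 27.0). Over all putative enhancers the share was 7.52%. The share was 5.55% (5.30 to 5.81) for TSS-distal enhancers, 18.8 percentage points lower than at noncoding starts (95% Newcombe interval of the difference 16.2 to 21.5). Coding-start enhancers overlapped a peak in 39.0% (36.4 to 41.6). Noncoding-start enhancers stood between both sets, at a difference of -14.6 points (-18.3 to -10.9) from the coding-start ones. The authors had removed regions within 1 kb of known promoters, so both sets near a TSS hold only what that removal left. Their shares are not those of coding or noncoding starts in general. The intervals treat the regions as independent and cover counting error only. Neighbouring regions can share a peak or a gene. The 251 regions touched 268 distinct peaks of the 25357 on the chromosomes, so that some touched more than 1. This count does not show how many peaks were shared.

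Most of these regions had a peak away from coding promoters. In 230 of the 251 regions (91.6%), at least 1 overlapping peak lay over 1 kb from every protein-coding TSS. The same held for 1513 of the 1697 TSS-distal enhancers with a peak (89.2%). By the rule, the centres of both sets lie over 1 kb from every protein-coding TSS. Counting such peaks alone, 22.3% of noncoding-start and 4.95% of TSS-distal enhancers overlapped one, a difference of 17.3 points (14.9 to 20.0). The overlapping peak contained the nearest noncoding TSS itself in 160 of 251 regions, or 63.7% (57.6 to 69.4). The widest overlapping peak had a median width of 678 bp (632 to 765), against 465 bp (442 to 488) at TSS-distal and 1181 bp (1041 to 1277) at coding-start enhancers.

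Regions close to the noncoding TSS overlapped a peak most often. It was 29.4% (25.2 to 34.1) of 394 regions up to 250 bp away, 29.6% (24.4 to 35.5) of 253 regions at 250 to 500 bp, 19.1% (14.3 to 25.1) of 204 regions at 500 to 750 bp and 11.6% (7.71 to 17.1) of 181 regions at 750 to 1000 bp. On the other side of the limit, TSS-distal enhancers at 1000 to 1250 bp from a noncoding TSS had a peak in 12.7% (8.95 to 17.8) of 220 regions, a value whose interval covers that of the last bin inside. The share was 4.63% (4.34 to 4.93) for the 19217 regions over 20 kb away. The 3 regions nearest to the limit from within had their centres 999 bp (E330011O21Rik), 995.5 bp (Gm5641) and 995 bp (Gm43795) from the TSS, and only the first overlapped a peak. The 3 nearest from outside lay 1000.5 bp (Gm35325), 1004.5 bp (Gm26723) and 1006 bp (Gm4876) away, and 0 of them overlapped a peak.

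**Figure D1:**
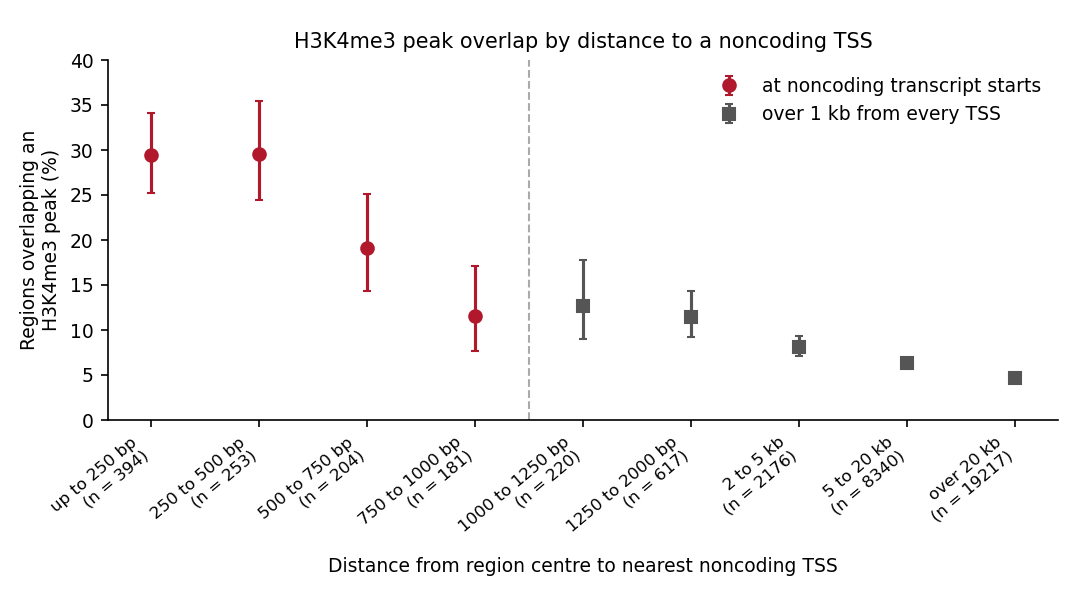
Percentage of putative enhancers that overlap an H3K4me3 peak (y axis) against the distance from the region's centre to the nearest noncoding TSS (x axis, bins, number of regions in parentheses); bars are 95% Wilson intervals and the dashed line is the 1 kb limit of the selection. The share is near 29% up to 500 bp, is 11.6% just inside the limit and 12.7% just outside, and reaches 4.63% over 20 kb away.

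The centres lay on both sides of the TSS. Along the direction of transcription, 502 of the 1032 centres (48.6%) were upstream and 529 (51.3%) downstream of the nearest noncoding TSS, with 1 exactly on it. The median distance was 353 bp (322 to 384). A peak was present at 22.3% (18.9 to 26.2) of the upstream and 26.3% (22.7 to 30.2) of the downstream regions, with overlapping intervals. The noncoding TSS lay inside the enhancer in 431 regions (41.8%), and 34.3% (30.0 to 38.9) of these overlapped a peak, against 17.1% (14.3 to 20.4) of the 601 regions that did not contain it. A wider region contains a TSS more readily. The share with a peak also differed by width, from 8.25% in regions up to 200 bp to 44.3% over 800 bp. The part of width in this contrast was not tested.

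The regions belonged to many kinds of noncoding gene. By the type of the nearest noncoding gene, 371 (35.9%) were at lincRNAs, which are long RNAs between coding genes, 188 (18.2%) at pseudogenes, 154 (14.9%) at TEC genes, mostly unspliced models that await experimental evidence, and 133 (12.9%) at antisense RNAs, which run opposite to a coding gene. Small RNA genes accounted for 95 (9.21%), processed transcripts for 56 (5.43%), other long noncoding types for 22 (2.13%) and segments of immune receptor genes for 13 (1.26%). Those 13 include 6 at variable and 4 at joining segments of T cell receptor genes that are not annotated as pseudogenes. They count as noncoding here only because their annotated type is not protein-coding. The largest single pseudogene class was that of processed pseudogenes, with 157 regions. Altogether 962 noncoding genes had a TSS within 1 kb of at least 1 of the regions, of which 845 had 1 region, 111 had 2 and 6 had 3. Only single-exon transcripts were annotated for 418 (43.5%) of these genes. A RefSeq gene of the same symbol and chromosome existed for 414 (43.0%), and 94 (9.77%) had a curated RefSeq transcript.

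Set against the annotation, pseudogenes and small RNAs were represented less often than each of the other types. Of all 5854 lincRNA genes, 339 or 5.79% (5.22 to 6.42) had a noncoding-start enhancer, as did 6.58% (5.05 to 8.53) of 790 processed transcripts, 4.29% (3.64 to 5.04) of 3219 TEC genes and 3.95% (3.31 to 4.72) of 2959 antisense genes. Other long noncoding types had 3.99% (2.65 to 5.96) of 552 genes and immune receptor segments 3.13% (2.08 to 4.70) of 702. The shares were 1.56% (1.28 to 1.90) of 6084 small RNA genes and 1.33% (1.15 to 1.54) of 13315 pseudogenes. The share over all 33475 noncoding genes was 2.87% (2.70 to 3.06). The rule leaves out enhancers near a coding TSS. The authors had also removed regions near known promoters, by a set of TSSs that is not given. The effect of either on each type was not counted.

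H3K4me3 differed between these types. The share with a peak was highest at processed transcripts, with 29 of 56 regions or 51.8% (39.0 to 64.3), followed by antisense RNAs with 31.6% (24.3 to 39.9) and lincRNAs with 28.6% (24.2 to 33.4). The latter 2 did not differ beyond their intervals. TEC genes had a peak at 17.5% (12.3 to 24.3), small RNA genes at 16.8% (10.6 to 25.6) and pseudogenes at 14.4% (10.1 to 20.1), again with overlapping intervals, and each of these was above the TSS-distal enhancers. Among the 13 regions at immune receptor segments 0 overlapped a peak, which allows a share of up to 23.1% (3 counts of 13). Median width was 563 bp at lincRNAs, 534 bp at antisense RNAs, 499.5 bp at processed transcripts, 438 bp at other long noncoding types, 424 bp at TEC genes, 366 bp at pseudogenes, 355 bp at small RNAs and 271 bp at immune receptor segments.

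**Figure D2:**
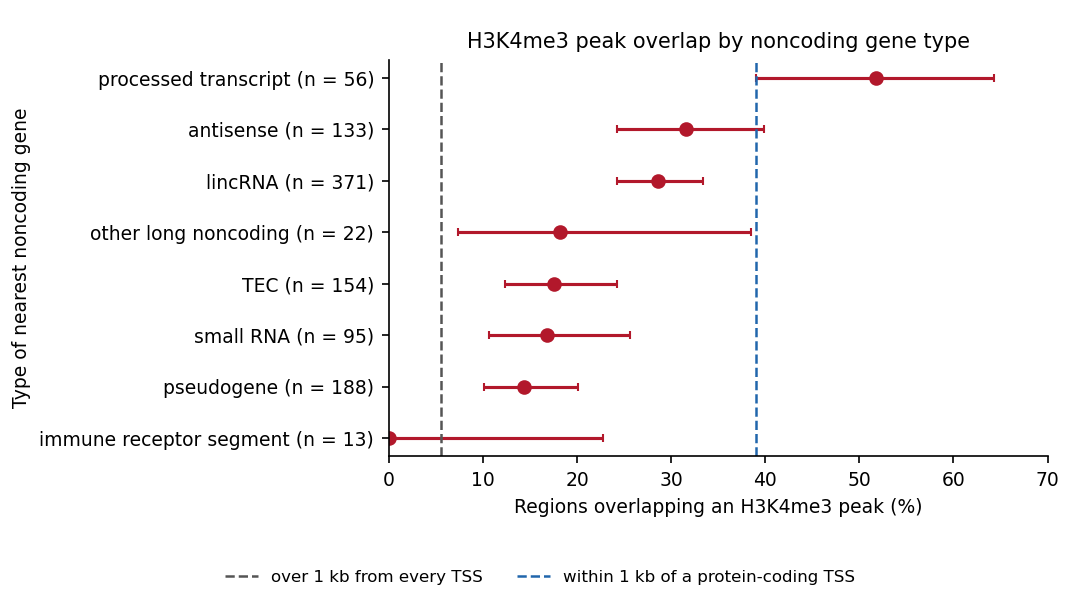
Percentage of noncoding-start enhancers that overlap an H3K4me3 peak (x axis) by the type of the nearest noncoding gene (y axis, number of regions in parentheses); bars are 95% Wilson intervals, and dashed lines mark TSS-distal (5.55%) and coding-start enhancers (39.0%). Processed transcripts stand highest at 51.8%, and the 13 regions at immune receptor segments have 0 peaks.

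Genes were counted in place of regions as well, with processed transcripts again first. An H3K4me3 peak lay within 1 kb of a TSS for 9.41% of all noncoding genes, and for 272 of the 962 genes at noncoding-start enhancers (28.3%). For lincRNAs the values were 10.5% of all genes and 32.4% of those at the regions, for processed transcripts 45.9% and 65.4%, for antisense RNAs 28.2% and 35.9%, for TEC genes 10.2% and 21.0%, and for pseudogenes 1.85% and 16.4%. Small RNA genes had 9.09% and 24.2%. Other long noncoding types went the other way, with 37.3% of all genes and 5 of the 22 at the regions (22.7%). Immune receptor segments had a peak at 3 of all 702 genes (0.427%) and at 0 of the 22 at the regions. The values for all genes include genes that start beside a coding promoter, which the rule leaves out of the regions.

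Peak-bearing regions were rich in CpGs. The GC content of the central 300 bases had a median of 57.0% (55.7 to 58.0) in noncoding-start enhancers with a peak and 48.7% (48.3 to 49.0) in those without. The median CpG ratio was 0.569 (0.518 to 0.630) and 0.201 (0.187 to 0.215), respectively. Of the 130 regions with a CpG ratio over 0.6, 119 overlapped a peak, or 91.5% (85.5 to 95.2), whereas 21 of the 408 regions at or below 0.2 did, or 5.15% (3.39 to 7.74). At a CpG ratio over 0.6 the share of TSS-distal enhancers with a peak was 62.8% (58.9 to 66.5) of 607 regions. Peak-bearing regions were also wider, at a median of 675 bp (613 to 791) against 410.0 bp (391 to 436). The share of repeat bases had similar medians, 7.33% with and 7.67% without a peak. Gm22133, shown above, is a region with a wide peak and few CpGs. Its overlapping peak, 2640 bp wide, also reached the TSS of the coding gene Ftl1, the ferritin light chain, 1.46 kb from the centre.

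**Figure D3:**
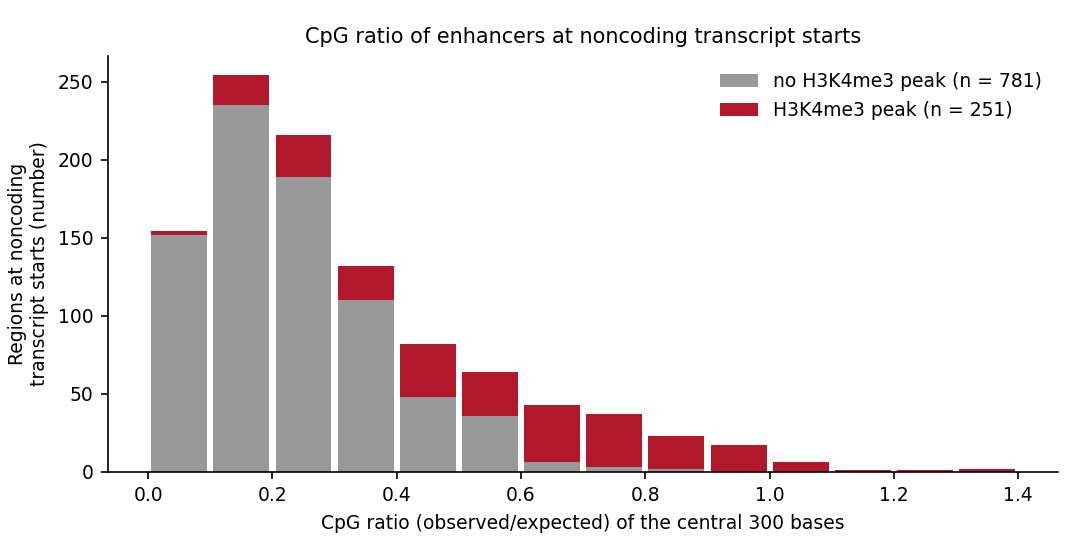
Number of noncoding-start enhancers (y axis) by the CpG ratio of the central 300 bases (x axis, bins of 0.1), split by whether the region overlaps an H3K4me3 peak (red, 251 regions) or not (grey, 781 regions). Regions without a peak gather at low ratios (median 0.201), and over 0.6 nearly all bars are red (119 of 130 regions).

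Noncoding-start enhancers as a whole differed from the TSS-distal ones in the same properties, by smaller amounts. Their median width was 456 bp (438 to 486) against 398 bp (395 to 402), with coding-start enhancers at 576 bp (544 to 595). Median GC content was 50.0% (49.3 to 50.3), 48.0% (48.0 to 48.0) and 52.0% (51.3 to 52.3) in noncoding-start, TSS-distal and coding-start enhancers, and the median CpG ratio was 0.249 (0.235 to 0.262), 0.189 (0.187 to 0.190) and 0.292 (0.274 to 0.311). Since width, CpG content and the nearness of coding promoters go along with H3K4me3, the peak shares were compared within bins of each. In every bin of the 3 measures the noncoding-start enhancers had the higher share than the TSS-distal ones, with intervals of the difference above 0.

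By distance to the nearest coding TSS, 52.0% (40.9 to 62.9) of 75 noncoding-start enhancers at 1 to 3 kb had a peak, against 20.9% (19.1 to 22.7) of the TSS-distal enhancers there. Over 50 kb from any coding TSS a peak was present at 66 of 366 noncoding-start enhancers (95% interval 14.4 to 22.3%), against 2.98% (2.68 to 3.32) of the TSS-distal ones. By width, the difference ran from 7.28 points (3.25 to 14.5) in regions up to 200 bp to 30.7 points (24.6 to 37.0) over 800 bp. By CpG ratio, it ran from 3.60 points (1.83 to 6.20) at or below 0.2 to 28.8 points (21.6 to 34.1) over 0.6. When the TSS-distal enhancers were weighted to the noncoding starts' mix of all 3 measures, over the 75 combinations of bins that held any, their share was 13.6%, compared with 24.3% at the noncoding starts. This weighting was chosen after the shares had been seen.

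**Figure D4:**
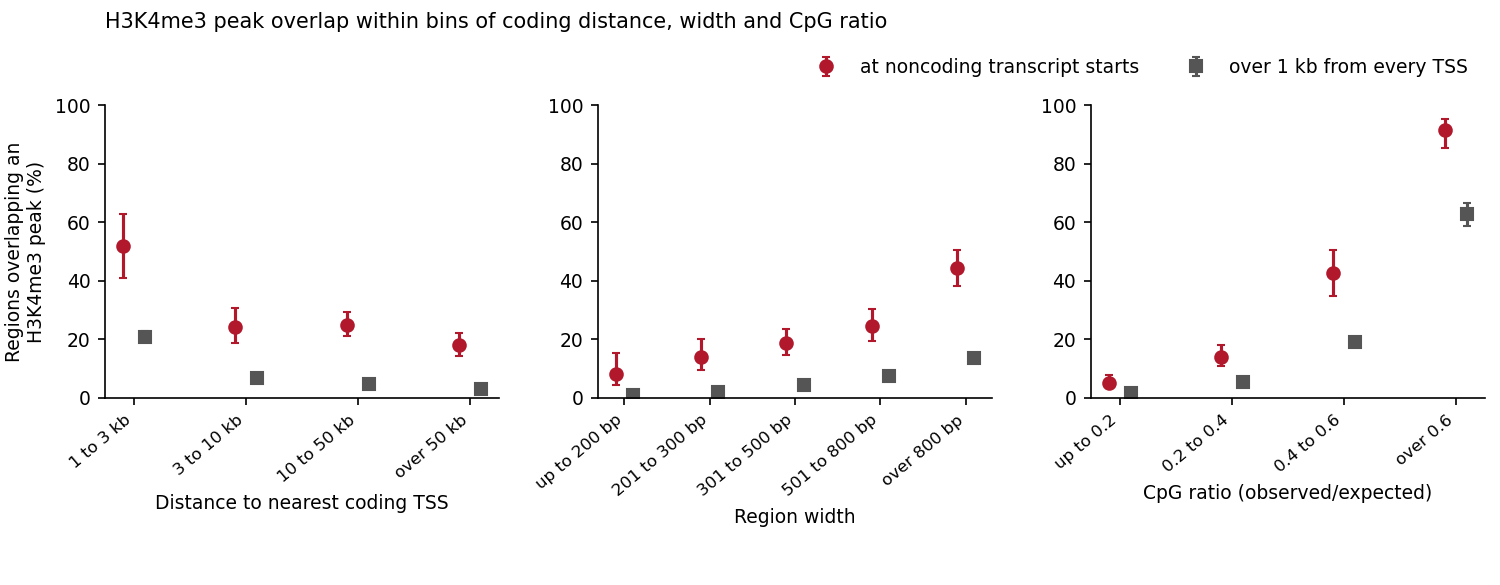
Percentage of regions that overlap an H3K4me3 peak (y axes) for noncoding-start (red circles) and TSS-distal enhancers (grey squares), within bins of the distance to the nearest protein-coding TSS, of region width and of CpG ratio (x axes); bars are 95% Wilson intervals. Red lies above grey in every bin, for example at 24.1% against 6.61% at 3 to 10 kb from a coding TSS.

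Short motifs were counted in the central 300 bases on both strands. A match shows the letters and does not show binding. The AP-1 motif TGANTCA, typical of fibroblast enhancers, occurred in 19.5% (17.2 to 22.0) of noncoding-start enhancers, in 22.3% (21.8 to 22.7) of TSS-distal ones and in 22.0% of all. The difference of -2.78 points (-5.13 to -0.208) barely leaves 0. The SP/KLF motif GGGCGG, common in CpG-rich promoters, occurred in 8.00 points more of the noncoding-start than of the TSS-distal enhancers (5.99 to 10.3), and the ETS motif CCGGAA in 3.13 points more (1.68 to 4.89). The RUNX motif TGTGGT was less frequent, at a difference of -3.93 points (-6.37 to -1.29), as was CCAAT, at -3.98 points (-6.69 to -1.11). The TEAD motif GGAATG (-1.80 points, -4.23 to 0.831), the E-box CAGCTG (1.98, -0.502 to 4.66) and TATAAA (-2.06, -3.93 to 0.0774) had differences whose intervals include 0.

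Within the noncoding-start enhancers, motif shares differed between regions with and without a peak, in both directions. GGGCGG was present in 34.3% (28.7 to 40.3) of the regions with a peak and 7.68% (6.01 to 9.76) of those without, and CCGGAA in 15.9% (11.9 to 21.0) and 4.48% (3.24 to 6.17). TGANTCA went the other way, with 12.7% (9.18 to 17.4) and 21.6% (18.9 to 24.7), a difference of -8.89 points (-13.6 to -3.45), and so did TGTGGT, at -7.64 points (-12.7 to -1.90), and GGAATG, at -6.73 points (-11.8 to -0.965). CAGCTG (-1.68 points, -7.20 to 4.47), CCAAT (-5.55, -11.4 to 0.890) and TATAAA (-4.44, -8.23 to 0.184) had differences whose intervals include 0. In the TSS-distal enhancers the shares were, for TGANTCA, 13.1% with and 22.8% without a peak and, for GGGCGG, 23.2% and 5.15%. GGGCGG and CCGGAA each contain a CpG, and their part in the CpG ratio was not tested.

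Noncoding-start enhancers lay inside coding genes less often than the TSS-distal ones. The centre was in a protein-coding gene body in 336 of 1032 regions, or 32.6% (29.8 to 35.5), against 50.6% (50.0 to 51.2), a difference of -18.1 points (-20.9 to -15.1). Of these regions 316 were in introns and 20 in exons. The types differed, with 22 of 371 lincRNA regions (5.93%), 98 of 133 antisense regions (73.7%) and 83 of 154 TEC regions (53.9%) inside a coding gene. LincRNAs lie between coding genes by definition, so the overall share depends on the mix of types. Of the 98 antisense regions 97 had the noncoding gene on the strand opposite to the host, as the type's definition requires, whereas 72 of the 83 TEC regions had it on the same strand. A gene on the strand of its host, without a spliced structure of its own, cannot be told apart from RNA of the host's introns by position.

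The nearest coding TSS was a median of 28.6 kb away (25.2 to 32.6), similar to the 28.4 kb (27.8 to 29.1) of TSS-distal enhancers. The nearest other enhancer was 7.11 kb (6.46 to 8.03) and 6.93 kb (6.78 to 7.08) away, respectively. The nearest coding gene carried an H3K4me3 peak within 1 kb of a TSS for 837 of 1032 regions, or 81.1% (78.6 to 83.4), against 59.1% of all coding genes. The difference from the TSS-distal enhancers, at 83.6%, was -2.51 points (-5.05 to -0.200). Of the regions with such a neighbour 24.3% (21.5 to 27.3) overlapped a peak themselves, and of those without it 24.6% (19.1 to 31.1).

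The known noncoding genes are described next. Of 67 listed genes known as noncoding RNAs, 65 were found in the annotation. Snhg11 and Tunar are protein-coding there and cannot have such a region by the rule. Of the other 63, 39 had an H3K4me3 peak within 1 kb of a TSS, against 9.41% of all noncoding genes. The authors' removal of known promoters can have taken enhancers at such genes, and this was not counted. Of the same 63, 8 had a noncoding-start enhancer, against 2.87% of all noncoding genes: Pvt1, Snhg15, Rmst, Mir17hg, Mir99ahg, Lncpint, Dleu2 and Ftx. At 7 of the 8, at least 1 region overlapped a peak, and Pvt1 was the exception.

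Pvt1, the long noncoding neighbour of the oncogene Myc, spans chr15:62037986-62378096, and 30 putative enhancers overlap it. Region 1 (chr15:62098763-62099156, 394 bp) was centred 69.5 bp upstream of an internal TSS, 112 kb from the TSS of Myc, and the nearest H3K4me3 peak was 49.0 kb away. Region 2 (chr15:62222387-62223471, 1085 bp) was centred 326 bp downstream of another TSS, 236 kb from Myc, with the nearest peak 173 kb away. Pvt1 did have a peak of 1358 bp at another of its TSSs, and the TSS of Myc had one of 4380 bp.

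Lncpint, a long noncoding RNA induced by p53, spans chr6:31082565-31220488 on the minus strand with 11 putative enhancers. Region 1 (chr6:31087499-31089554, 2056 bp), near the 3′ end of the gene, overlapped a peak of 1197 bp and had a CpG ratio of 0.267 and a match to TGANTCA. Region 2 (chr6:31216228-31217280, 1053 bp), at the 5′ end, overlapped a peak of 3205 bp and had a CpG ratio of 0.959 without such a match. The 2 regions of this gene thus differed in peak width and CpG content.

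Several of the named genes are hosts of microRNAs or small nucleolar RNAs. Mir17hg is the host of an oncogenic microRNA cluster, and its region (chr14:115040966-115042955, 1990 bp) was centred 918.5 bp upstream of the TSS within a peak of 2820 bp, at a GC content of 83.3%. Dleu2, the host of microRNAs deleted in lymphocytic leukaemia, had a region of 2259 bp (chr14:61647291-61649549) with a peak of 1680 bp and a GC content of 77.0%. Mir99ahg had a region of 513 bp (chr16:77499578-77500090) with a peak of 376 bp and a GC content of 40.3%. Snhg15, a host of a small nucleolar RNA, had a region of 1965 bp (chr11:6526759-6528723) within a peak of 2515 bp. Its GC content of 42.7% and CpG ratio of 0.220 were those of the region's centre, 700 bp downstream of the TSS. Rmst, a long noncoding RNA of neural development, had a region of 964 bp (chr10:92162267-92163230) with a peak of 815 bp, 554 kb from the nearest coding TSS, that of Nedd1. Ftx, a regulator of Xist in the X inactivation centre, had a region of 378 bp (chrX:103621828-103622205) with a peak of 699 bp.

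**Figure D5:**
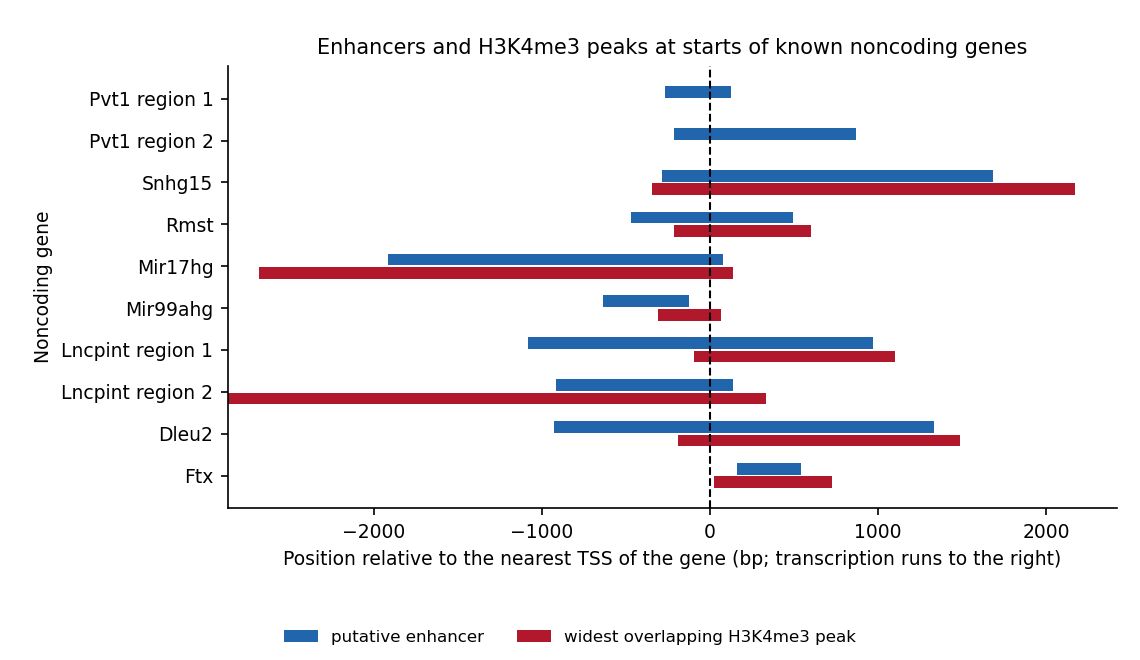
Position of the putative enhancers (blue) and of the widest H3K4me3 peak that overlaps each (red) relative to the nearest TSS (x axis, bp, dashed line at 0, transcription to the right) for the 8 known noncoding genes with a noncoding-start enhancer (y axis). Both Pvt1 regions lack a peak, and the widest peaks are at Lncpint region 2 (3205 bp) and Mir17hg (2820 bp).

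The widest peaks over noncoding-start enhancers were partly shared with coding genes. The peak of 4477 bp over the region at Gm43573 (chr3:148987181-148989448, in an intron of Adgrl2) was also the peak at the TSS of Adgrl2, an adhesion receptor gene, 1.00 kb from the centre. The peak of 3157 bp at BC037039 lay within the protocadherin gamma cluster, and its coding neighbour Pcdhgc3 has a TSS 1.10 kb away. In contrast, Gm13067 (chr4:150047656-150049513, peak 2704 bp) lay 38.8 kb from the nearest coding TSS, that of Gpr157, and Mir17hg lay 50.3 kb from that of Gpc5.

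The 5 widest regions ranged from 2329 to 3905 bp. The widest, at the TEC gene Gm45546 (chr8:70608094-70611998), lay 1.17 kb from a TSS of Ssbp4, with which it shared a peak of 1601 bp. The others were at 2410080I02Rik (2473 bp, 5.90 kb from Klf9), Gm10425 (2379 bp, in an intron of Exoc3l4), AC141471.3 (2359 bp, 19.4 kb from Cxxc5) and Gm14488 (2329 bp). The first 4 overlapped a peak, and for Gm14488 the nearest peak was 0.474 kb away.

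At the other end, 203 of the 1032 regions (19.7%) had no H3K4me3 peak within 100 kb. The widest of these, at Gm29346 (chr1:120757356-120759202, 1847 bp), lay 156 kb from En1, a homeobox gene of limb and brain patterning. The region at Gm15271 (chr10:24447130-24448703, 1574 bp) lay 148 kb from Ccn2, a matrix-associated growth factor gene with a peak of 2192 bp.

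The 5 genes with most regions, by count and then genome order, had 3 regions each. At the lincRNA 1810019N24Rik all 3 regions overlapped peaks, of 432, 657 and 1041 bp. At AC160966.1 and Gm35940, a pair of processed transcripts on opposite strands that share regions, and at Gm28231 and the pseudogene Gm47228, 0 regions overlapped a peak. For Gm28231 the nearest peak was 17.8 to 19.1 kb away, and for Gm47228 162 to 163 kb.

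MicroRNA genes were nearest to 14 regions, of which 4 overlapped a peak. In genome order the first 12 were at Gm25472, Gm25911, Gm22800, Gm24327, Gm24811, Gm22328, Gm22133, Gm26237, Mir1957b (2 regions), Gm24587 and Gm27711. Except for Mir1957b these are predicted genes without a microRNA name, and no mature sequence was matched. The regions with a peak among the 12 were at Gm25911 (peak 706 bp, centre 1.5 bp from the TSS, CpG ratio 1.11), Gm22328 (302 bp, in an intron of the forkhead gene Foxp1) and Gm22133 (2640 bp).

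The coding neighbours were many, with few regions each. The 1032 regions had 801 different nearest coding genes, of which 628 had 1 region, 138 had 2 and 23 had 3. Dad1, a subunit of the oligosaccharyltransferase, was the nearest coding gene of 11 regions, which lay 46.0 to 655 kb away. All but the one at Gm43434 were at variable or joining segments of the T cell receptor alpha locus, and 0 of the 11 overlapped a peak. Hs6st1, a heparan sulfate sulfotransferase, had 6 regions, 0 of them with a peak. Ptprc, which encodes the leukocyte antigen CD45, had 6 regions with 1 peak, and had no H3K4me3 peak at its own TSSs. Dclk1, a kinase, and Gas2, a growth-arrest gene, had 4 regions each, of which 1 and 0 overlapped a peak. Further genes with 4 regions were Chd2, Ubash3b, Sorl1, Trib2, Klf6, Ly86 and Zfp825, and at the last of these, a zinc finger gene, all 4 regions overlapped a peak.

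Genes of fibroblast biology were often among the nearest coding genes. Of 40 mesenchymal transcription factors, 10 were the nearest coding gene of at least 1 region, as were 8 of 38 matched matrix genes and 10 of 40 ligands and receptors, against 801 of 21938 coding genes (3.65%). These genes have many enhancers of any kind, and of the enhancers nearest to them 3.23% (1.90 to 5.45), 3.74% (2.10 to 6.57) and 5.30% (3.24 to 8.56) were noncoding-start enhancers. The first 2 intervals cover the 3.13% over all enhancers, and the third lies just above it. Ccn2, nearest to the region at Gm15271, was listed among the matrix genes under its older symbol Ctgf. It was not matched and is not in these counts.

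The genes with at least 2 regions were Klf6 among the transcription factors, Col12a1 and Col1a2 among the matrix genes, and Bmp4, Tgfb2, Tgfbr2 and Itgav among the ligands and receptors. Klf6, an early-response zinc finger factor, had 4 regions 22.5 to 223 kb away at the lincRNAs Gm35330, Gm47507 and Gm47514, out of 36 enhancers nearest to it. Col12a1, a fibril-associated collagen, had 3 of 32, which lay 374 to 411 kb away. Bmp4, a morphogen of the TGF-beta family, had 3 of 6, of which 2 were at Gm15221, and 0 of these regions overlapped a peak. Col1a2, a chain of type I collagen, had 2 regions at Gm37883, 20.8 and 21.5 kb away, 1 of them with a peak. Tgfb2, its receptor gene Tgfbr2 and the integrin gene Itgav had 2 regions each, and 0 of these overlapped a peak. Single regions with a peak were nearest to Jun, at Junos (1.36 kb from the coding TSS), and Fosl2, at Gm10463 (2.11 kb). Jun and Fosl2 encode AP-1 subunits. Such regions were also nearest to the listed factors Tbx15, at Gm43120 (8.26 kb), Nfia, at Gm12676 (14.7 kb), and Foxp1, at Gm22328 (35.4 kb). The single regions nearest to other listed genes had no peak. Among the factors these genes were Twist2, Prrx1, Zeb2 and Ets2. Among the matrix genes they were Col5a2, Fn1, Postn, Thbs1, Mmp14 and Dcn. Among the ligands and receptors they were Tgfbr3, Fgfr1, Igf1, Egfr, Itga5 and Itgb1. The share with a peak over all noncoding-start enhancers was 24.3%.

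The annotation used limits what counts as a noncoding start. Of the 1032 regions, 87 (8.43%) overlapped the 1 kb window of a curated RefSeq TSS, against 0.785% of the TSS-distal and 15.0% of the coding-start enhancers. A peak was present at 57.5% (47.0 to 67.3) of these 87 regions. The count did not separate coding from noncoding RefSeq TSSs, so this share is not one of noncoding starts alone. Of the 945 regions without a curated RefSeq TSS so near, 21.3% (18.8 to 24.0) overlapped a peak. The rule used the coding TSSs of GENCODE only, and some regions lay within 1 kb of a RefSeq coding TSS. Leaving these out gave 3.04% of the enhancer list, with a peak at 23.0%. That was 17.7 points (15.2 to 20.4) above the enhancers left at neither kind of start.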

How the data were processed

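The files analysed here hold 2 lists of positions, and 0 columns of values per sample. Per the methods, the authors trimmed reads with Trim Galore, aligned them with BWA to mm10 (GRCm38.p6), filtered them with samtools, merged replicates with Picard and called narrow H3K4me3 peaks with MACS. The deposited peak list covers all samples, with starts counted from 0, and the deposited enhancer list counts starts from 1. Neither holds a score, so that no interval over replicates, no replicate error and no depth can be given. Peaks outside the assembled chromosomes (74) were left out. The set of TSSs by which the authors removed promoters is not given in the sources used here.

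TSSs were the 5′ ends of all GENCODE M21 transcripts on chromosomes 1 to 19, X and Y, whereas the authors name a later GENCODE release of the same assembly, so that their TSSs can differ. A region was assigned by its centre. A peak counted when it shared at least 1 base with a region. Shares have 95% Wilson intervals, differences Newcombe intervals and medians order-statistic intervals, computed with Python, NumPy and SciPy. No p-value was computed. Sequence measures used the central 300 bases. The functions were tested on simulated data. The members, gene lists and named-gene rule were chosen with earlier results of these data known: named were known noncoding genes, those with most regions, the widest regions, the widest peaks, the widest regions without a peak within 100 kb, microRNA genes, the 5 commonest coding neighbours, and listed neighbours with at least 2 regions. A gene that the rule names is not reported here. Other genes were named after their values were seen. The planned count test over time could not be run on positions.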

Additional observations from a re-analysis of the deposited data

How the results depend on the processing

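Of 114 alternative values, 81 stayed within the 95% interval of the reported value (for the number of regions, within 1.5 times), and 33 did not. A window of 500 bp gave 658 regions (2.00%), with a peak at 30.1%, a median GC content of 50.7% and CpG ratio of 0.274. A window of 2 kb gave 1744 regions (5.29%), a peak at 16.2%, a width of 434 bp, GC 49.0% and CpG ratio 0.223. Taking any base in the window gave 3.69% of enhancers and a peak at 21.2%. With 1 TSS per gene, 36.8% were in coding gene bodies and the coding TSS was 42.3 kb away, and with basic transcripts only these were 35.7% and 37.9 kb. Long noncoding types alone gave 588 regions (1.78%), a peak at 31.5%, a width of 548 bp, 26.7% in coding gene bodies, 32.7 kb to the coding TSS, GC 50.7% and CpG ratio 0.275. Without pseudogenes the share was 2.56% and the width 492 bp. A peak covering at least 50% of the region was found at 20.5%, and a peak of at least 500 bp at 16.4%. Outside repeats the CpG ratio was 0.265. TGANTCA was present in 12.4% of central 200-base and 30.9% of central 500-base windows, and TGACTCA alone in 14.3% of central 300-base windows. Under each of the 10 other selections the share with a peak exceeded that of the enhancers left at neither kind of start, by 11.6 to 25.8 points. Those comparison sets followed the TSSs, window and chromosomes of each selection and held 28677 to 31725 regions. They are thus not the 30570 TSS-distal enhancers used above, and some include regions at noncoding starts that the selection left out. The alternative by peak score was not run, as the list has no scores. No paired analysis was possible because both lists analysed here hold only positions, and for the same reason no replicate could be left out. The cause of the shifts was not tested.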

Other observations

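Noncoding-start enhancers were spread over all chromosomes that hold enhancers. Their share of a chromosome's enhancers ran from 2.20% on chromosome X (11 of 500) to 4.24% on chromosome 7 (71 of 1675). Chromosome 1 held most regions, with 100, of which 15 overlapped an H3K4me3 peak. On chromosome 7, 22 of 71 regions did so.

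Among the small RNA genes, regions at snRNA genes numbered 35, of which 7 overlapped a peak, those at miscellaneous RNAs 22 with 2, and those at snoRNA genes 18 with 3. Among pseudogenes, 16 of 157 regions at processed pseudogenes overlapped a peak, and 5 of 13 at unprocessed ones. Of the 17 regions at sense intronic RNAs, 1 did.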
